A study of Mus musculus with 6 samples.

Results

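Myoglobin (Mb) was examined in heart ventricles of mouse embryos through every probe set that the array's platform annotation assigns to Mb, which were 2 of 45037 probe sets that are not array controls. Of the 2 Mb probe sets, 1451203_at, called the brighter here, was lower in all knockout arrays than in all wild-type arrays, and 1422420_at, called the dimmer, was higher in all of them. Mb was selected on its knockout and wild-type signals on these same arrays, so its values are described below without a test. The study set ventricles of 3 skNAC knockout samples, which carry a targeted deletion, beside those of 3 wild-type littermates, all of strain 129SvEv at stage E11.5. From each, 500 ng of total RNA was amplified, labelled with biotin and hybridised to an Affymetrix Mouse Genome 430 2.0 array, whose probe sets each read a stretch of a transcript. skNAC is the long, muscle-specific form encoded by Naca, and per the labels its loss is lethal with heart defects by E12.5. Samples go by the numbers of their titles, which are 1, 26 and 66 for knockout and 13, 23 and 57 for wild-type. The labels do not say whether an array held 1 heart or several, which embryos shared a litter or in which cells the deletion took place, so the p-values measure only the spread between these samples, which may be technical.

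Myoglobin is a small haem protein of cardiomyocytes and oxidative skeletal muscle fibres. It binds oxygen reversibly, eases its movement to mitochondria, and also reacts with nitric oxide. In muscle its gene is transcribed under the control of MEF2 factors, the calcineurin-NFAT pathway and the coactivator PGC-1alpha, together with other genes of the oxidative muscle programme.

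Mb lies on the minus strand of mouse chromosome 15, and RefSeq (GRCm38.p6) gives it 3 transcription starts. The second and the third are 60 bases apart, and the first lies 27.9 kb farther upstream. The 250 bases before the first start (chr15:77050669-77050918) and before the second (chr15:77022788-77023037) are shown because the probe sets disagree and the gene has starts far apart, although nothing in the files ties a probe set to a transcript. Letters run 5′ to 3′ along the gene, and capitals mark the E-box CANNTG, the core site of muscle basic helix-loop-helix factors, and the CCAC box CCCACCCC, both searched on both strands.
Mb, far upstream start: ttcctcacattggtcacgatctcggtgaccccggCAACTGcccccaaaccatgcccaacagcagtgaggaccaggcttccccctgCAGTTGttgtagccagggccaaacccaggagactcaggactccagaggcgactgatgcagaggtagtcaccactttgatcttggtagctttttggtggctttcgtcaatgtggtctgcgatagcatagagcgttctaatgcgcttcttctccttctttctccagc
Mb, second start: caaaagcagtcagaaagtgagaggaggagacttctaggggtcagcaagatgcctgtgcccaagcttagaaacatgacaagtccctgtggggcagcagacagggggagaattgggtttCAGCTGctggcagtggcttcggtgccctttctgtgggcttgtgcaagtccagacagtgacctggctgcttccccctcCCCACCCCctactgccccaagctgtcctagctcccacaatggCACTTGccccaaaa
The sequence before the second start held 2 E-boxes and 1 CCAC box, which did not overlap. The sequence before the first start held 2 E-boxes and no CCAC box. At least 1 E-box was found in 66.2% of the 32851 RefSeq windows of the same length, a CCAC box in 8.52% and the MEF2 consensus site in 2.92%. The MEF2 consensus was found in none of the 3 Mb windows. These matches describe letters in the windows only.

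The brighter Mb probe set read 786.4, 334.0 and 694.5 in knockout 1, 26 and 66, against 1656.9, 1376.2 and 1260.4 in wild-type 13, 23 and 57. The genotypes did not overlap, and knockout 26 stood well below the other knockout arrays. Mean signals were 605 ± 239 in knockout and 1431 ± 204 in wild-type (SD, n = 3 each), a ratio of 0.423. On the log2(signal + 16) scale, where 16 is added to damp noise at low signal, the difference knockout minus wild-type was -1.30 ± 0.26 (SE). The gap between the highest knockout and the lowest wild-type array was 474 signal units. Within knockout the highest array was 2.35 times the lowest, and within wild-type it was 1.31 times the lowest.

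The dimmer Mb probe set ran the other way. It read 172.4, 125.4 and 143.3 in knockout 1, 26 and 66, against 81.0, 65.5 and 85.9 in wild-type 13, 23 and 57. All wild-type arrays were below the signal of 95.2 at which probe sets were kept for the tests, and all knockout arrays were above it. Its means were 147 ± 23.7 in knockout and 77.5 ± 10.6 in wild-type (SD, n = 3 each), a ratio of 1.90 and a log2 difference of 0.80 ± 0.26 (SE). Over the 6 arrays its back-transformed log2 mean was 107, just inside that limit, and it was inside only through its knockout values. Knockout 26 was the lowest knockout array on both probe sets.

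**Figure D1:**
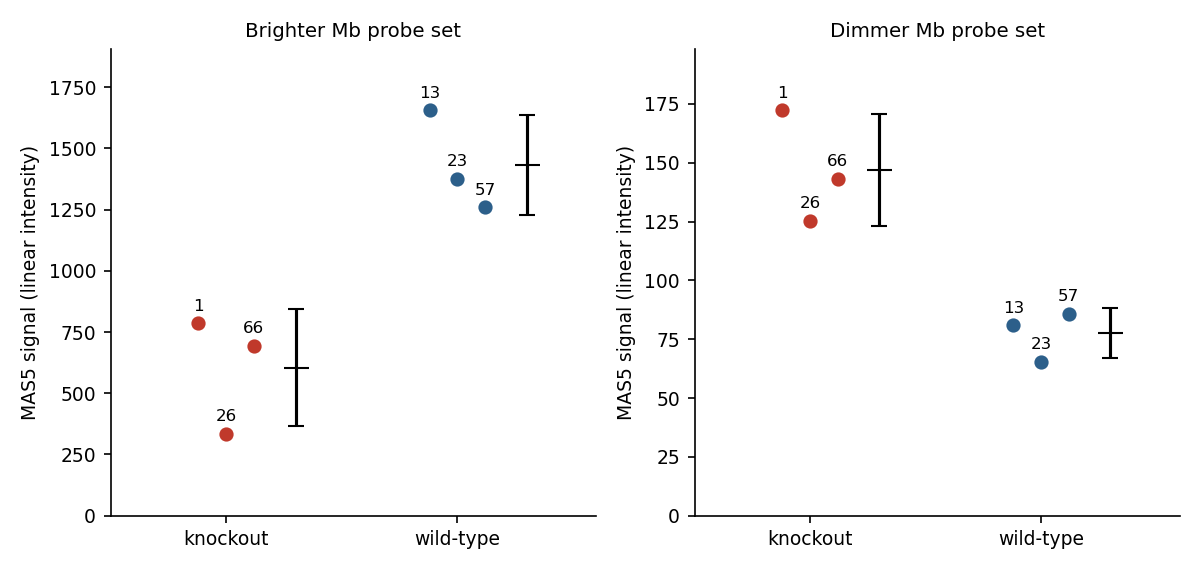
MAS5 signal (linear intensity, axes from 0) of the brighter (left) and dimmer (right) Mb probe set, with a point per array labelled by its number and, beside each genotype, the mean with SD bars (n = 3). Knockout arrays lie below all wild-type arrays on the brighter probe set and above all of them on the dimmer one.

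The log2 signal of the brighter probe set minus that of the dimmer one was 2.09, 1.31 and 2.16 in knockout 1, 26 and 66. It was 4.11, 4.09 and 3.65 in wild-type 13, 23 and 57. The distance between the probe sets was thus 2.10 log2 units smaller in knockout, at 1.85 against 3.95 in wild-type. If the 2 probe sets are averaged, the Mb difference is -0.25. No detection calls, probe sequences or second measurement of Mb were used here, so which probe set follows Mb mRNA was not tested.

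Disagreement in sign between probe sets of a gene was common on these arrays. Of 4619 genes with at least 2 kept probe sets, 45.1% had opposite signs on their 2 brightest, with a median distance of 0.17 log2 units between them. In 18 genes (0.39%), Mb among them, both probe sets separated the genotypes completely and in opposite directions, and in 44 genes they did so in the same direction. Mb had the largest distance of the 4619, at 2.10, and the next gene had 1.99. Since Mb was chosen with its disagreement known, these counts place it without testing it. Mb is among the 4619 only because its dimmer probe set was kept through its knockout values. The genes were not matched for the signal of their second probe set.

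**Figure D2:**
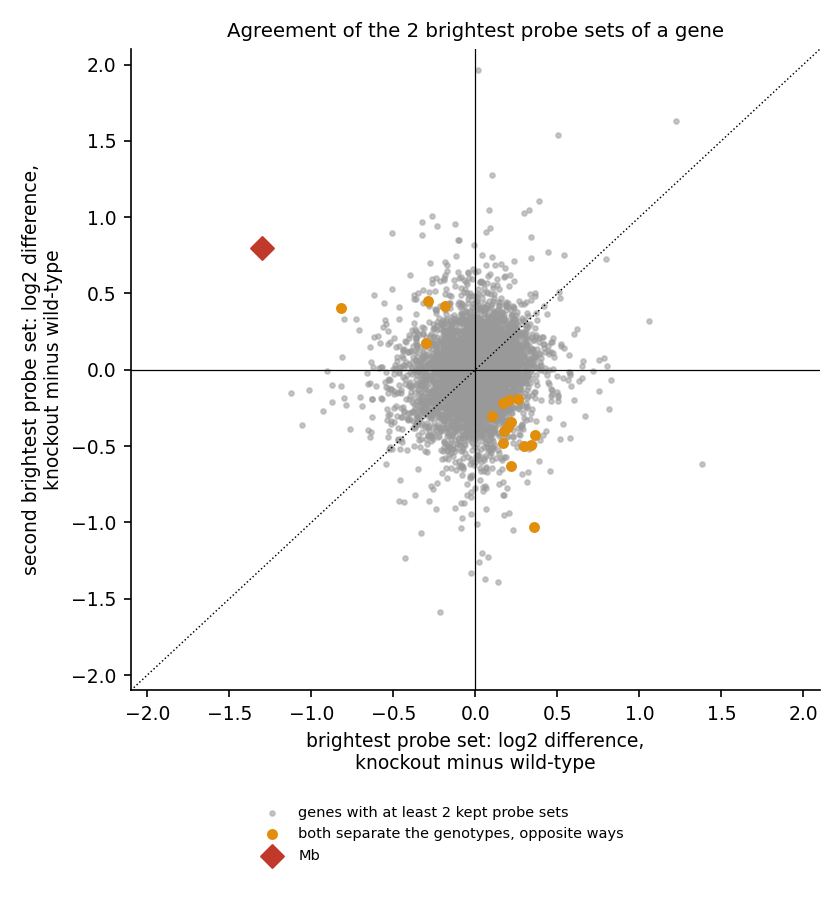
Log2 difference (knockout minus wild-type) of a gene's brightest probe set (horizontal) against its second brightest (vertical), with a grey point for each of 4619 genes. Mb (red diamond) lies at -1.30 and 0.80, and the other genes whose 2 probe sets separate the genotypes in opposite directions (orange) lie closer to the centre, where the dotted line marks equal differences.

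Array-wide measures were close across samples, apart from one sign of RNA quality. The deposited signals had a 2% trimmed mean of 250 on all 6 arrays, and their medians lay between 92.0 and 113.9 in knockout, against 95.0 to 111.3 in wild-type. The ratio of 3′ to 5′ signal, which grows as RNA is degraded or shortened in amplification, was 2.49 to 2.57 in knockout against 2.05 to 2.24 in wild-type for actin. For Gapdh it was 1.28 to 1.45 in knockout, against 1.12 to 1.20 in wild-type. Neither ratio overlapped between genotypes, and their part in the Mb values was not tested. Naca read 8892 ± 258 in knockout and 8412 ± 142 in wild-type (SD, n = 3 each) on its brightest probe set, which does not check the deletion because the sources used here do not say which part of Naca it reads. Smyd1, a muscle methyltransferase and binding partner of skNAC, had 1027 ± 192 in knockout against 1099 ± 7.78 in wild-type.

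Across the array, limma tested 11661 genes, each by its brightest kept probe set. At an adjusted p under 0.05, 0 genes (0%) were called, the lowest value being 0.642. Unadjusted, 547 genes (4.69%) had a p under 0.05, with 254 higher (2.18%) and 293 lower (2.51%) in knockout. The genotypes did not overlap in 1266 genes (10.9%), of which 5.4% of all genes were higher and 5.45% lower in knockout. The median log2 difference over all genes was 0.0023, with 5881 genes above 0. The gene groups below are read against these shares, and no member of any of them passed the adjusted test.

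Markers of cardiomyocytes, the cells of the heart that make myoglobin, all had a kept probe set, and their summed signal overlapped between genotypes. All 22 cardiomyocyte markers were measured, and their summed signal ran from 206210 to 227434 in knockout and from 196151 to 216610 in wild-type. Their median log2 difference was 0.028, with 14 above 0 and 8 below. Myl2, the ventricular myosin light chain, read 20443, 20642 and 25534 in knockout against 18982, 19160 and 18174 in wild-type (0.23 ± 0.10, adjusted p = 0.974). Myom1 of the M-band was at -0.29 ± 0.14, cardiac actin Actc1 at 0.15 ± 0.09 and troponin T Tnnt2 at -0.15 ± 0.09. After quantile normalization the median of the list was -0.10. Knockout 26, the lowest array on the brighter Mb probe set, had the highest mean marker deviation of the 6, at 0.058, and it was the lowest array for 1 of the 22 markers.

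Taken relative to the mean of these markers, a setting chosen after seeing the data, the Mb difference was -1.29 on the brighter probe set and 0.80 on the dimmer one. In whole ventricles, fewer cells of a type and less RNA per cell cannot be told apart.

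The other globins lay on both sides of 0. Of 14 other globin genes, 5 had a kept probe set of their own, 2 above 0 and 3 below, with a median of -0.03. They are globins of red cells, which fill the embryonic heart. Hbb-y, the embryonic beta-type globin, read 28679, 23263 and 26977 in knockout against 23296, 20531 and 21680 in wild-type (0.26 ± 0.10, unadjusted p = 0.0177 in limma). Its genotypes overlapped slightly on this brightest probe set and did not overlap on the other two kept ones, at 0.23 ± 0.09 and 0.23 ± 0.08. Hbb-bh1, another embryonic beta-type chain, was at 0.13 ± 0.14, and Hba-x, the embryonic alpha-type chain, at -0.03 ± 0.14. Hba-a2 gave -0.04 and Hbb-b2 -0.05. Near-identical adult globin genes share probe sets, so these 2 are uncertain.

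Probe sets shared by several adult globin genes carried far higher signals than those 2 and differed in direction. The probe set shared by the adult beta-type genes Hbb-bt, Hbb-bs, Hbb-b2 and Hbb-b1 read 5055.7, 1654.9 and 2365.6 in knockout 1, 26 and 66, against 3971.7, 3537.7 and 5335.2 in wild-type 13, 23 and 57 (-0.64 ± 0.32, unadjusted p = 0.0695 in limma). The genotypes overlapped, and knockout 26 was the lowest array, as on the brighter Mb probe set. Of the 3 kept probe sets shared by the alpha-type genes Hba-a1 and Hba-a2, the brightest was at 0.22 ± 0.09 (unadjusted p = 0.025 in limma) with no overlap, and the others were at 0.15 ± 0.09, also with no overlap, and -0.17 ± 0.24. Neuroglobin (Ngb) and cytoglobin (Cygb), which are expressed in neurons and in fibroblast-like cells, had mean signals below the kept level on all of their probe sets. Cygb read 15.8, 98.5 and 109.6 in knockout against 81.1, 66.4 and 96.2 in wild-type, with all wild-type values inside the knockout range.

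Erythroid markers varied among the arrays of a genotype. The 10 measured of 13 had a mean deviation of 0.60, -0.12 and -0.43 in knockout 1, 26 and 66, against 0.06, -0.29 and 0.18 in wild-type 13, 23 and 57. Their summed signal was 56174 to 76531 in knockout and 51808 to 62340 in wild-type, and 5 of the 10 had a log2 difference on each side of 0. Tal1 and Gata1, transcription factors of red cell precursors, were at -0.24 and 0.16.

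Genes that make, move or break down haem, the oxygen-binding group of myoglobin, were spread evenly. Of 16 measured, 8 were above and 8 below 0, with a median of 0.00055, and none (0) had an unadjusted p under 0.05 in limma. Alas1, which starts haem synthesis outside red cells, read 259.4, 278.6 and 253.8 in knockout against 350.2, 406.1 and 274.2 in wild-type (-0.35 ± 0.18). One wild-type array lay among the knockout values. The bilirubin-forming reductase gene Blvra was at -0.21 ± 0.14, the haem transporter gene Slc48a1 at 0.25 ± 0.22 and the synthesis enzyme gene Uros at 0.19 ± 0.19.

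Known regulators of Mb and of oxidative muscle genes were spread narrowly around 0. Of 21 measured, 11 were above and 10 below 0, with a median of 0.0095 and a range from -0.25 to 0.13. The 4 of smallest p were Myocd, the coactivator of serum response factor, at -0.25 ± 0.16, Ppargc1a, which encodes PGC-1alpha, at -0.21 ± 0.14, its relative Ppargc1b at -0.20 ± 0.14, and Srf at -0.24 ± 0.17. Ppargc1a was the 1 regulator whose genotypes did not overlap, with 459.0, 451.9 and 424.0 in knockout against 482.9, 547.4 and 523.4 in wild-type. Its highest knockout array was close to its lowest wild-type array. Over all genes 10.9% did not overlap, with 5.45% of all genes lower in knockout, so 1 of 21 does not exceed these shares. Named for their role after their values were seen, Mef2c was at -0.00 ± 0.13, the calcineurin subunit gene Ppp3ca at -0.03 ± 0.16, Nfatc1 at 0.10 ± 0.21 and Tead1 at -0.10 ± 0.14.

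Genes of oxidative metabolism in heart and slow muscle, the usual partners of Mb, lay below 0 more often than above it, by small amounts. Of 23 measured, 17 were below 0 and 6 above, with a median of -0.075 against 0.0023 over all genes. Unadjusted in limma, 2 members had a p under 0.05 on the lower side and 0 on the higher. Over all genes these shares were 2.51% and 2.18%. Without overlap, 4 members were lower in knockout and 1 higher, against 5.45% and 5.4% of all genes. Cox8b, the muscle form of a cytochrome oxidase subunit, read 110.7, 79.4 and 146.4 in knockout against 191.0, 202.3 and 205.9 in wild-type. All knockout arrays were below all wild-type arrays, with knockout 26 lowest, and the difference was -0.78 ± 0.25 (unadjusted p = 0.00871 and adjusted p = 0.974 in limma). The isocitrate dehydrogenase gene Idh2 was at -0.24 ± 0.10, and Hadhb and Acadvl, enzymes of fatty acid oxidation, were at -0.21 ± 0.10 and -0.28 ± 0.14. Named for their role after their values were seen, Cox7a1 was at -0.22 ± 0.14, Cox6a2 at -0.07 ± 0.11 and the fatty acid binding protein gene Fabp3 at -0.21 ± 0.14. Of the 6 members above 0, Pdk4 was highest at 0.24 ± 0.19 and the 1 without overlap. Lpl was at 0.16 ± 0.12, Sdha at 0.12 ± 0.11, Etfb at 0.11 ± 0.10, Cycs at 0.10 ± 0.10 and Cs at 0.003 ± 0.10. Over the alternatives the median of the list ran from -0.19 with array quality weights to -0.05 without wild-type 23, and it was -0.14 after quantile normalization and -0.13 without wild-type 57. None of the 23 differed by as much as the brighter Mb probe set.

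Genes of nitric oxide signalling and reactive oxygen defence, the other chemistry in which myoglobin takes part, gave 5 above and 9 below 0 among 14 measured, with a median of -0.03. Gucy1a1, a subunit of the nitric oxide receptor, read 449.3, 431.6 and 290.9 in knockout against 452.3, 487.6 and 509.1 in wild-type (-0.32 ± 0.18). The genotypes did not overlap, by a margin of a few signal units. Without overlap, 2 of the 14 members (Gucy1a1 and Nos3) were lower in knockout and 0 higher. Over all genes these shares were 5.45% and 5.4%. The endothelial synthase gene Nos3 was at -0.19 ± 0.14, the neuronal synthase gene Nos1 at -0.30 ± 0.22 and the mitochondrial thioredoxin reductase gene Txnrd2 at -0.33 ± 0.25.

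Genes of the response to low oxygen, both its regulators and genes it induces, had a median of 0.049, with 12 of 20 measured above 0. Of the 20, 1 had an unadjusted p under 0.05 in limma, against 4.69% of all genes. Without overlap, 2 members (Bnip3 and Ldha) were higher in knockout, against 5.4% of all genes. On the lower side 1 did not overlap (Ddit4, at -0.15 ± 0.13), against 5.45% of all genes. Bnip3, a mitophagy receptor, read 3442, 3593 and 3663 in knockout against 2913, 2923 and 2793 in wild-type. The genotypes did not overlap, and the difference was 0.31 ± 0.09 (unadjusted p = 0.00613 and adjusted p = 0.974 in limma). Ldha, which makes lactate, was at 0.19 ± 0.09, the glycolytic gene Pgk1 at 0.14 ± 0.10, and Epas1, which encodes an oxygen-regulated transcription factor, at -0.22 ± 0.18. Without any one of knockout 1, knockout 26 or wild-type 23, or when all probe sets of each gene were averaged, the median of this list was below 0.

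**Figure D3:**
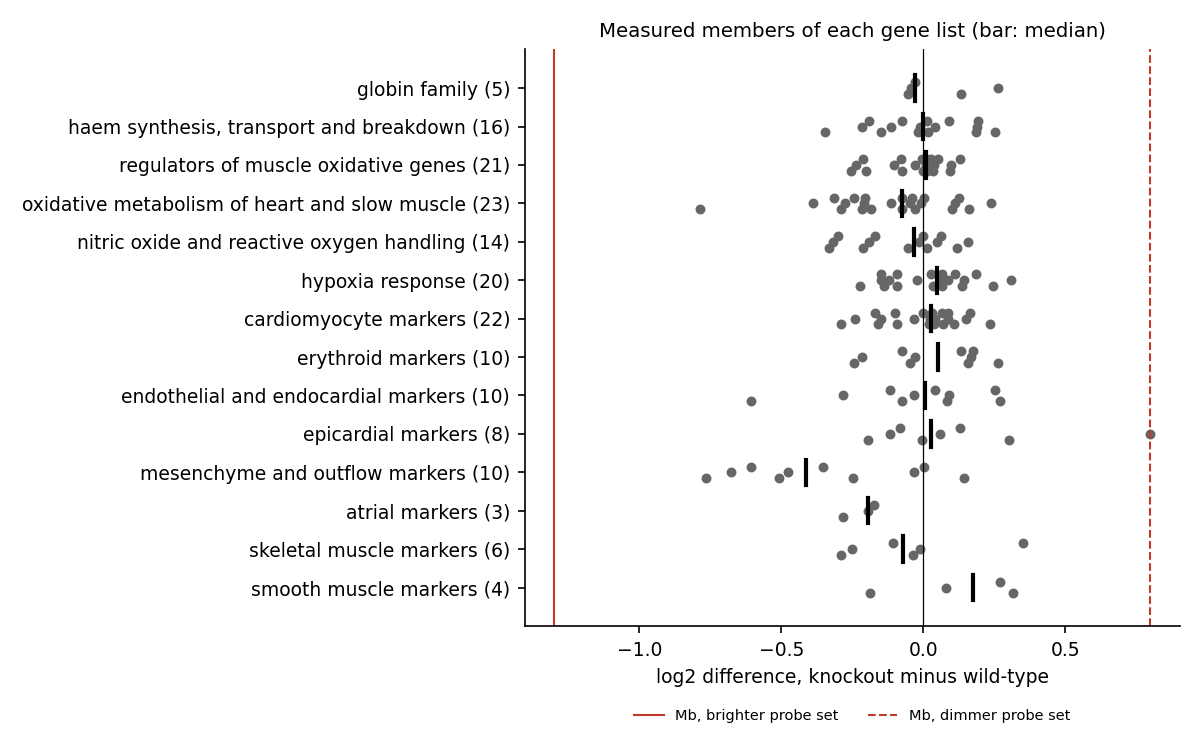
Log2 difference (knockout minus wild-type) of each measured member of the 14 gene lists (grey points, Mb left out, number measured in brackets), with the list median as a black bar. The red lines mark the brighter (solid, -1.30) and dimmer (dashed, 0.80) Mb probe set. No list member lies as low as the brighter probe set, and Krt8, an epicardial marker, lies at the dimmer one.

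Among markers of other cells, those of mesenchyme and outflow lay on the same side of 0 as the brighter Mb probe set. Of 10 measured, 8 were below 0, 6 of them at an unadjusted p under 0.05 in limma (2.51% of all genes were lower at that p). The median was -0.41. Their summed signal was 7473 to 9848 in knockout and 9387 to 10469 in wild-type, and their mean deviation was -0.18, -0.29 and -0.06 in knockout 1, 26 and 66, against 0.20, 0.23 and 0.10 in wild-type 13, 23 and 57. The 4 of smallest p were Col1a1 (-0.51 ± 0.14), Snai2 (-0.76 ± 0.24), Postn (-0.68 ± 0.24) and Pdgfrb (-0.47 ± 0.17), genes of collagen, mesenchymal transition, matrix and mural cells. The part of these cells in the Mb values was not tested.

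The remaining marker lists were split or held few measured members. The 10 endothelial and endocardial markers had 5 on each side of 0 and a median of 0.005, with Cd34 lowest at -0.61 ± 0.25. Pecam1, Cdh5 and Kdr were at -0.28, 0.27 and 0.25. The 8 epicardial markers had 4 on each side, with Krt8 at 0.80 ± 0.18, Wt1 at 0.30, Upk3b at -0.19 and Krt18 at 0.13. Skeletal muscle, the other tissue that makes myoglobin, was represented by 6 measured of 10 markers, 5 of them below 0 with a median of -0.07. The myogenic factor genes Myf5, Myog and Myf6 were below the kept signal. Myod1 was kept, with means of 171 in knockout and 183 in wild-type (-0.04 ± 0.28). Skeletal actin Acta1 had means of 2624 in knockout and 2643 in wild-type (-0.01 ± 0.10). Tnnt3, a fast troponin gene, was at 0.35 ± 0.40, and Ckm, Mylpf and Tnni2 were at -0.29, -0.25 and -0.10. The 3 measured atrial markers, Nr2f1, Nr2f2 and Stard10, were at -0.19, -0.28 and -0.17, and the 4 smooth muscle markers had a median of 0.18, with Acta2 at 0.27, Smtn at 0.31, Cnn1 at -0.19 and Tagln at 0.08.

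The genes whose 6 values were most like those of the brighter Mb probe set were found by the root mean square difference between centred log2 values, each gene's values minus its own mean over the 6 arrays. A gene with no variation would lie at 0.76 from Mb, and the median over the 11089 genes ranked was 0.79. The 12 nearest lay at 0.25 to 0.37, and since they were picked for this likeness, their differences between genotypes are given without a test. The nearest was Mcam, an adhesion molecule of vessels and smooth muscle, at 282.2, 125.5 and 319.2 in knockout against 448.5, 454.5 and 380.7 in wild-type. Its genotypes did not overlap, and knockout 26 was again the lowest array.

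Kcnk3, Casq2 and Kcne1, genes active in cardiomyocytes, were also among the 12. Kcnk3, a background potassium channel, read 146.0, 133.3 and 212.6 in knockout against 394.8, 352.1 and 365.6 in wild-type (-1.13 ± 0.20). Casq2, which stores calcium in the sarcoplasmic reticulum, read 192.0, 123.2 and 186.1 in knockout against 296.6, 283.4 and 306.2 in wild-type (-0.79 ± 0.20). Kcne1, a subunit of the slow delayed rectifier channel, read 201.1, 102.5 and 239.6 in knockout against 290.6, 283.4 and 259.1 in wild-type (-0.65 ± 0.27). None of these overlapped between genotypes, and the groups of Kcne1 came closest.

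The other genes near Mb were of mixed function. Spon2, a secreted matrix protein, was at -0.82, the complement regulator properdin (Cfp) at -0.80, the co-chaperone Dnaja4 at -0.80, the kinase Pak6 at -0.86 and Axin1, a scaffold of Wnt signalling, at -0.64. Tcam1, an adhesion molecule gene known from testis, was at -0.91, the zinc finger gene Zfp358 at -0.73 and Tmcc1, of the endoplasmic reticulum, at -0.82. Spon2, Dnaja4 and Zfp358 each had a second, dimmer kept probe set of opposite sign, at 0.41, 0.33 and 0.33. Axin1 had a second at -0.09, and Tmcc1 had others at -0.11 and -0.23. In the 5 genes of the 12 with more than 1 kept probe set, no other probe set thus showed a difference of the size printed. Knockout 26 was the lowest of the 6 arrays in all 12 genes, which choosing them by likeness to Mb favours, and in 5 of them its signal was under 95.2. In 3 of the 12 (Tcam1, Pak6 and Cfp) the knockout mean was under 95.2, so they were kept only through their wild-type values. Pearson correlation over the 6 arrays, which ignores the size of a change, named 1 of these 12 (Casq2) among its own 12 nearest, while pseudocount 64 and quantile normalization each kept 10.

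**Figure D4:**
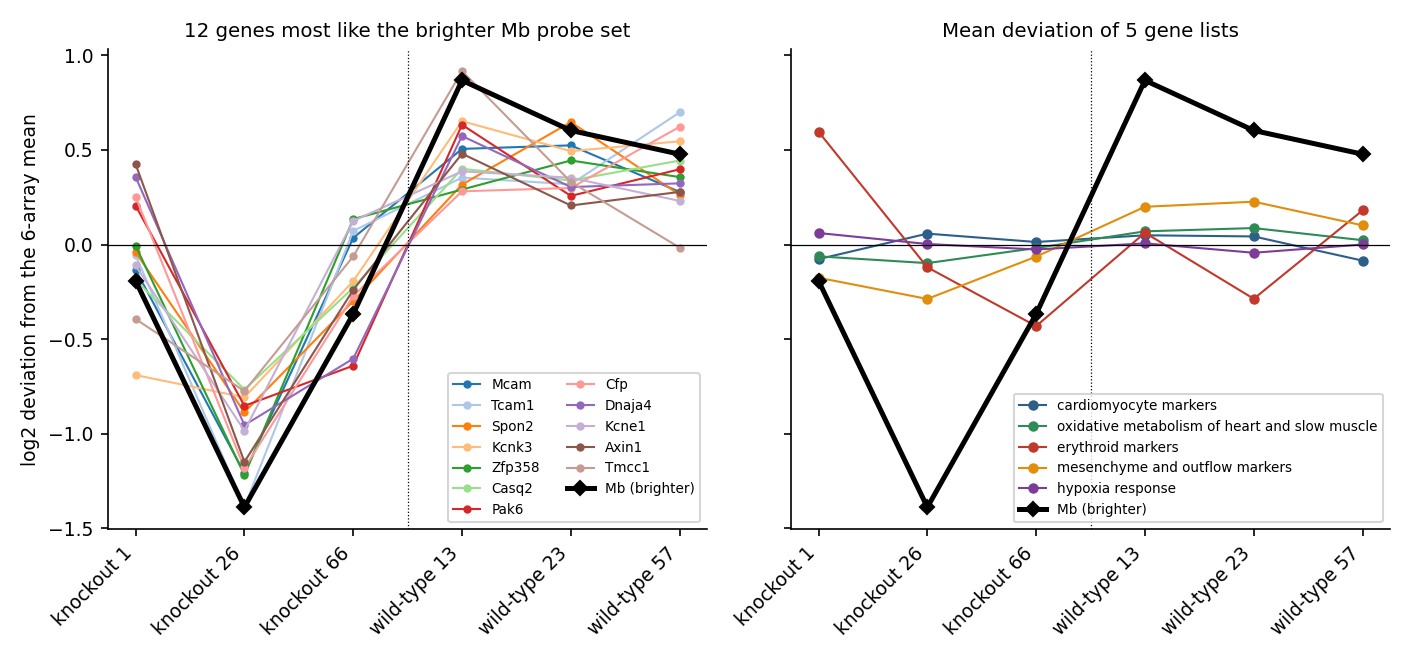
Log2 deviation from the 6-array mean in each array, for the brighter Mb probe set (thick black), the 12 genes most like it (left) and the mean of 5 gene lists (right), with knockout arrays left of the dotted line. Lines join the arrays only to guide the eye. The 12 genes were picked for likeness to Mb, so their low point at knockout 26 follows from the choice, and means over many genes vary less than single genes.

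The dimmer Mb probe set had other neighbours in pattern, at root mean square differences of 0.16 to 0.17. They too were picked for likeness, so their differences between genotypes are given without a test. The Polycomb gene Cbx7 read 138.4, 102.9 and 119.1 in knockout against 76.3, 63.0 and 98.7 in wild-type. Its highest wild-type array came close to its lowest knockout array. Dennd6a was at 0.58, the D-lactate dehydrogenase gene Ldhd at 0.56, Ribc1 at 0.57 and Apbb1ip, an effector of Rap signalling, at 0.63. Dennd6a had a second kept probe set of opposite sign. In Cbx7, Ldhd, Ribc1 and Apbb1ip the wild-type mean was under 95.2, at 79.3, 80.9, 81.5 and 77.5. They were kept only through their knockout values, as was the dimmer Mb probe set.

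The nearest measured genes around Mb on chromosome 15 gave no common direction. Between them and Mb lay from 2 other genes (1110038F14Rik and Rbfox2) to 37 (Ift27). Of the 10 nearest measured genes, 5 on each side, 5 were above and 5 below 0. Rpl8, a ribosomal protein gene, was the 1 among them with an unadjusted p under 0.05 in limma and without overlap, at 0.25 ± 0.09. Over all genes, 4.69% had such a p and 10.9% did not overlap, so 1 of 10 is near these shares. Rbfox2, a splicing factor gene, was at 0.16 ± 0.17, 1110038F14Rik at -0.15 ± 0.16 and Zfp251 at 0.50 ± 0.23. The others, Commd5, Zfp647, Myh9, Txn2, Eif3d and Ift27, lay between -0.23 and 0.03. Apol6, which overlaps the annotated span of Mb, was below the kept signal, at 36.9, 34.7 and 84.1 in knockout against 58.1, 39.5 and 48.7 in wild-type, and its genotypes overlapped.

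Every alternative that kept the 2 Mb probe sets apart left their directions in place, and the size of the brighter one ran from -1.72 to -0.93. Because the genotypes did not overlap on either probe set, a changed pseudocount, array weights or an omitted array could not reverse a direction. Without knockout 26 the brighter probe set was at -0.93, and without knockout 1 it was at -1.53. Array quality weights, at 2.53 for knockout 26 and 0.335 for knockout 66, put it at -1.72. The dimmer probe set ran from 0.57 with a pseudocount of 64 to 0.91 with a pseudocount of 1.

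**Figure D5:**
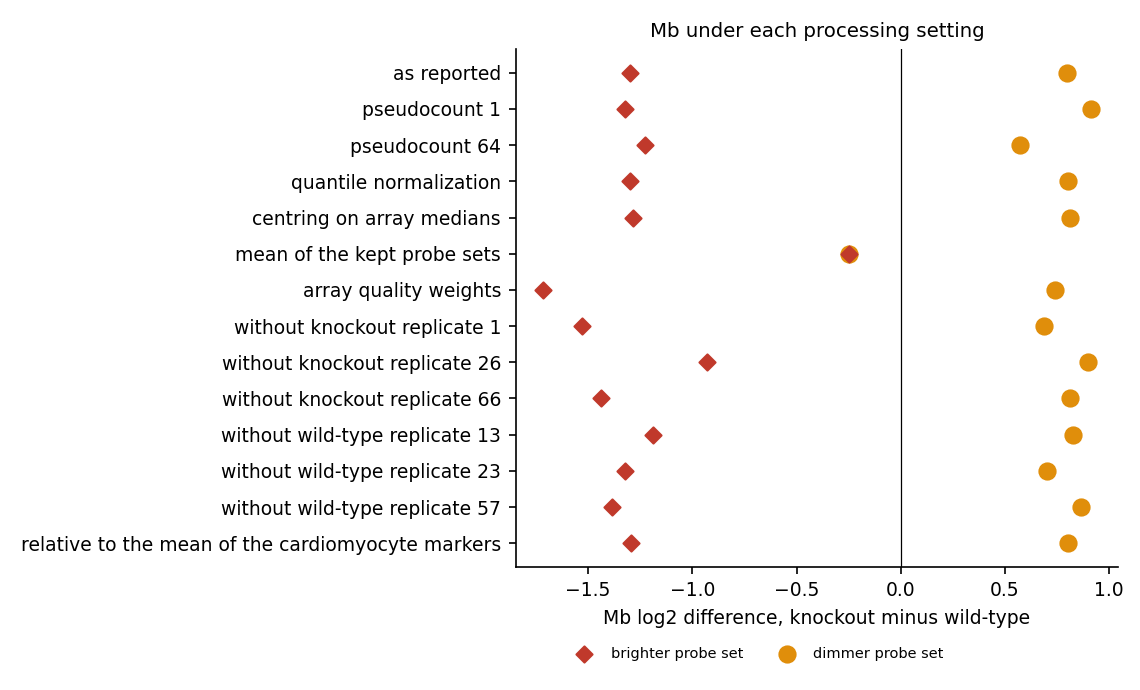
Mb log2 difference (knockout minus wild-type, horizontal) under each processing setting, for the brighter (red diamonds) and dimmer (orange circles) probe set. The 2 stay on opposite sides of 0 except where they are averaged, at -0.25. For pseudocounts, weights and omitted arrays this follows from the lack of overlap between genotypes.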

How the data were processed

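Probe set intensities on a linear scale were deposited as 1 table of 6 arrays. Per the submitters' processing notes, the authors used GCOS and MAS5. Versions, scaling settings, genome build and detection calls were not found in those notes or the labels. The deposited values have the same trimmed mean on all 6 arrays, so a signal is taken as relative to its own array. The number of arrays limits precision. The platform annotation gave 1 symbol for 34945 probe sets, several for 932 and none for 9160. Matching its Entrez identifiers to RefSeq updated 0 symbols.

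Signals were transformed as log2(intensity + 16). Probe sets with a mean log2 above the median of all (a signal of 95.2) were kept, 22518 in all. They were fitted with limma 3.58.1 (R 4.3.3; lmFit, eBayes with trend, two-sided), and each gene's brightest kept probe set was adjusted by Benjamini-Hochberg over 11661 genes. SEs are limma's. Arrays were grouped by title, with no covariates. Members, the 14 lists and tests were chosen with earlier results of these data known. The naming rule took all Mb probe sets, Naca, Smyd1, measured globins, the 4 members of smallest p in each list, the 12 and 5 genes most like the brighter and dimmer Mb probe sets, and 5 neighbours a side. Promoter sequences are RefSeq's. Alternatives are given in the closing section. The fit was tested on simulated data. Figures used Matplotlib 3.10.9 under Python 3.11.15.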

Additional observations from a re-analysis of the deposited data

How the results depend on the processing

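The brighter Mb probe set stayed below 0 and the dimmer one above 0 under pseudocounts of 1 and 64, quantile normalization, median centring, array quality weights and scaling to the cardiomyocyte markers. The genotypes did not overlap on either probe set, so pseudocounts, weights and omitted arrays could not have given another direction. With a pseudocount of 64 the dimmer one was at 0.57, and the mean of both probe sets was -0.25, so the dimmer direction reversed, as averaging opposite signs must. Leaving out 1 array at a time gave -1.53 to -0.93 for the brighter probe set and 0.69 to 0.90 for the dimmer one. Genes passing the adjusted test in limma numbered 0 in the reported setting (547 at an unadjusted p under 0.05), 8 with array quality weights and 0 to 2 with 1 array left out. The 8 include Mb, for which this is no test because it was chosen on the same contrast. Those with 1 array left out were Igdcc4 and Nudt6 without knockout 1 and Postn without knockout 66. Of list members, 1 passed with array quality weights (Krt8) and 0 to 1 with 1 array left out. The medians of the oxidative metabolism, mesenchyme and outflow, and smooth muscle lists kept their sign in all 16 alternatives, and those of the other 11 lists changed sign in at least 1. The haem list was opposite in 8. No paired analysis was possible because the genotypes share no replicate number.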
